A study of Mus musculus with 3 samples.

Results

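The SR proteins, the Tra2 proteins and the heterogeneous nuclear ribonucleoproteins (hnRNPs) were examined in mouse blood monocytes, gene by gene and by transcript class. A gene was a member when its symbol was Srsf followed by a number, began with Hnrnp, or was Tra2a or Tra2b, and when at least 1 of its transcripts was annotated protein_coding. This rule gave 33 genes of the 55450 annotated genes and of the 21901 genes with a protein_coding transcript: 11 SR proteins, 2 Tra2 proteins and 20 hnRNPs. Another 2 matching symbols, Hnrnpa1l2-ps and Hnrnpa1l2-ps2, had no protein_coding transcript and were left out.

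Total RNA sequencing was deposited for 3 libraries of 1 group, so no treatment or genotype was compared. The mice were adult C57BL/6J animals of 5 to 6 weeks, and the monocytes came from peripheral blood. Each library was made with ScriptSeq from 100 ng of RNA after ribosomal RNA had been removed, with fragment sizes of 200 to 594, 200 to 491 and 200 to 1000 bases in libraries 1, 2 and 3. The labels number the libraries as biological replicates but give all of them the same donor record, and sex was not collected. The p-values thus cover the spread of these 3 libraries and nothing wider, and that spread may be technical in part.

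The gene tables held 27158565, 26541404 and 19917940 expected counts. Levels are in TPM, a length-corrected share of all RNA in the table. Small nuclear RNA genes held 60.8%, 60.0% and 60.5% of all TPM and protein-coding genes 10.9%, 9.84% and 10.7%, so 1 TPM is a larger share of the protein-coding RNA than the name implies. All 10 monocyte markers examined, among them Lyz2, Csf1r and Ccr2, were above 1 TPM. Library 3 stood apart in its other cell markers. Red cell markers summed to 3533, 3326 and 263 TPM in libraries 1, 2 and 3, and natural killer cell markers to 675, 569 and 1623 TPM, with all 8 of the latter above 1 TPM. Monocyte markers summed to 2460, 2070 and 1454 TPM. Lyz2 gave 1448, 1238 and 718 TPM of this sum and Ctss 497, 369 and 234 TPM. Cx3cr1, Spi1 and Mpeg1 were also lowest in library 3. By contrast, Csf1r, Ccr2, Tyrobp and Cd68 were highest there, and Fcer1g was lowest in library 1. Neutrophil markers summed to 139, 125 and 9.08 TPM, with 2 of 6 above 1 TPM and Ly6g listed at 0 in every library. Retnlg alone gave 124, 114 and 0 TPM of this sum. Of the rest, S100a8, S100a9 and Mmp8 were lowest in library 3, while Csf3r was highest there at 5.99, 6.64 and 8.09 TPM. Platelet markers summed to 15.3, 11.2 and 96.6 TPM (4 of 6 above 1 TPM), B cell markers to 91.8, 91.7 and 82.1 TPM (5 of 6) and T cell markers to 2.62, 2.96 and 5.43 TPM (1 of 6). The part of other cells in the results was not tested, and fewer cells of a type cannot be told apart from less RNA per cell.

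SR proteins bind short exon sequences through RNA recognition motifs and recruit the splicing machinery through an arginine and serine rich domain, while hnRNPs coat nascent RNA and often hold exons or introns out of the message. Many of these genes control their own message by alternative splicing. An alternative exon with an in-frame stop codon, often called a poison exon, sends a transcript to nonsense-mediated decay, and an intron left in the transcript can keep it in the nucleus.

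The annotation of these genes was rich in such forms. The 33 members had 296 transcripts, of which 139 were protein_coding, 80 retained_intron, 39 nonsense_mediated_decay and 38 processed_transcript, a class with no annotated reading frame. The median was 7 transcripts per member against 4 over all genes with a protein_coding transcript. At least 1 retained_intron transcript was annotated for 24 members (72.7%) against 41.6% of all such genes, and at least 1 decay-class transcript for 21 members (63.6%) against 20.5%. Hnrnpa0, Hnrnpab, Hnrnpf, Hnrnph1, Hnrnph2, Srsf10 and Srsf12 had neither.

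All 39 decay-class transcripts had an annotated stop codon 52 to 1801 bases before their last exon junction. In 15 of them, from 9 members, the exon with the stop overlapped no exon of a protein_coding transcript of the same gene. The stretches below run from the first base of such an exon to its stop codon, in capitals, for the most abundant such transcript of each member with a mean of at least 1 tpm. They are shown because these exons tell the decay-class transcript apart from the coding message. They do not tell it apart from every retained_intron transcript. The Srsf3 stretch lies within an intron kept in Srsf3-204, and the Srsf7 stretch within an intron kept in Srsf7-206 and Srsf7-207. All are on mm10, 5′ to 3′ on the gene's strand: Tra2a at chr6:49252965-49253108 (minus), Tra2b at chr16:22259181-22259261 (minus), Srsf3 at chr17:29039454-29039487 (plus), Srsf4 at chr4:131884276-131884390 (plus), Srsf7 at chr17:80205054-80205081 (minus), Srsf11 at chr3:158024209-158024231 (minus) and Hnrnpll at chr17:80044976-80045022 (minus).
Tra2a-202: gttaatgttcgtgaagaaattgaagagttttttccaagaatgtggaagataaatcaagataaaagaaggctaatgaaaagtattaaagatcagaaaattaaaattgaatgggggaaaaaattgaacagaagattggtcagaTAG
Tra2b-206: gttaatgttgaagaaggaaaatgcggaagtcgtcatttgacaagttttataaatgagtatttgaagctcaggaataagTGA
Srsf3-201: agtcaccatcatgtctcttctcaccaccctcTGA
Srsf4-203: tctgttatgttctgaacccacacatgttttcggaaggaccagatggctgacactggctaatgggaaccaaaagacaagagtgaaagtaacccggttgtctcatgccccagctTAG
Srsf7-203: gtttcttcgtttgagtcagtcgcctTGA
Srsf11-210: ttcttttccctggttcagccTGA
Hnrnpll-203: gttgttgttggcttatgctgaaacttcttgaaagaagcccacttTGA
The exons of the paralogues Tra2a and Tra2b, which are both exon 2 of their transcript, began with the same 9 bases. Their stops lay 144 and 81 bases from the exon start.

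Among the 80 retained_intron transcripts, 30 from 17 members contained at least 1 whole intron that a protein_coding transcript of the gene removes. These were 33 different annotated introns with a median of 326 bases, from 21 to 2244 bases, and all 33 began with GT and ended with AG. The 21-base one, in Srsf5, is removed in only 1 protein_coding transcript. Whether reads span these introns was not examined. The other 50 held no whole intron of a protein_coding transcript. Introns within the coding sequence, at most 120 bases long and removed in at least 4 protein_coding transcripts, are shown for 4 hnRNPs with their terminal bases in capitals, because each separates its transcript from the coding forms. They lie at chr13:58393775-58393852 (Hnrnpk, minus), chr6:51466223-51466302 (Hnrnpa2b1, minus), chr2:75661818-75661895 (Hnrnpa3, plus) and chr7:28821274-28821391 (Hnrnpl, plus) of mm10.
Hnrnpk-227: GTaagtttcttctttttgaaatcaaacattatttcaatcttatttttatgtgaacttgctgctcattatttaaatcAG
Hnrnpa2b1-213: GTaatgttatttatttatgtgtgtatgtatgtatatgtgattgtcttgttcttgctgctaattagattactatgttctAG
Hnrnpa3-205: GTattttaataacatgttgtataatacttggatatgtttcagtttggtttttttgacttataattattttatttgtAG
Hnrnpl-210: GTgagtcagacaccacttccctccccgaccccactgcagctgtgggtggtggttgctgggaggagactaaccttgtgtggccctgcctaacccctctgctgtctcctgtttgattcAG
Hnrnpk-227, 514 bases long, stood at 60.3, 30.8 and 83.4 tpm in libraries 1, 2 and 3. Hnrnpa2b1-213 stood at 21.2, 16.3 and 57.3 tpm and Hnrnpa3-205 at 11.3, 4.17 and 27.8 tpm, both highest in library 3. Hnrnpl-210 stood at 5.94, 8.27 and 2.47 tpm and was lowest there.

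Gene levels come first. Of the 33 members, 32 had counts enough to be tested and all 32 lay above 1 TPM (edgeR quasi-likelihood test, adjusted p from 4.9e-16 for Srsf5 to 5.2e-06 for Hnrnpll). Of all 17678 genes tested, 43.2% lay above 1 TPM. The members' median level was 32.2 TPM against 4.51 TPM over the 8302 protein-coding genes with a mean of 1 TPM or more. Together the members made up 1.52%, 1.40% and 1.66% of the protein-coding TPM.

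Among the SR and Tra2 proteins, Srsf5 was the most abundant, at 236, 189 and 239 TPM in libraries 1, 2 and 3. Srsf3, a small SR protein that also links messages to nuclear export, followed at 71.3, 70.6 and 72.3 TPM. Tra2b, an SR-like activator that binds purine-rich exon enhancers, stood at 70.2, 58.6 and 80.1 TPM, and its range overlapped that of Srsf3. Srsf11 stood at 33.4, 29.3 and 39.1 TPM. Srsf10, known as a repressor of splicing when dephosphorylated, stood at 44.7, 28.4 and 24.1 TPM, and these values overlapped those of Srsf11.

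At the lower end, Srsf9 stood at 6.56, 7.43 and 8.56 TPM and Srsf4 at 5.17, 5.47 and 7.50 TPM, with overlapping ranges. Srsf12 had 0 expected counts in every library, where 3 counts would stand for 0.0156, 0.0143 and 0.0232 TPM. It was the lone member with no expected count, although the transcript tables with estimated counts gave it 0.0750, 0.180 and 0.269 tpm. The transcript tables with expected counts gave its leading transcript, Srsf12-201, 0 TPM in every library. The other SR and Tra2 proteins, Srsf1, Srsf7, Tra2a, Srsf6 and Srsf2, had mean levels from 30.5 down to 15.1 TPM.

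The hnRNPs were led by Hnrnpa2b1, which packages nascent RNA and sorts messages, at 171, 141 and 238 TPM. Hnrnpk, a KH-domain protein that binds cytosine-rich RNA, stood at 178, 177 and 178 TPM and differed least between libraries of all members (coefficient of variation 0.485%). The ranges of these 2 genes overlapped, so their order was not set. Hnrnpf and Hnrnph1, which bind runs of guanine, stood at 166, 130 and 127 TPM and at 122, 96.5 and 133 TPM, again overlapping. Hnrnpdl followed at 65.5, 49.3 and 56.3 TPM, below every value of Hnrnph1.

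The lowest hnRNPs were Hnrnph3 at 10.2, 8.22 and 12.3 TPM, Hnrnpa0 at 5.52, 4.43 and 6.74 TPM, and Hnrnpll at 3.68, 3.06 and 3.45 TPM. Hnrnpll, known for its part in the splicing of Ptprc in lymphocytes, lay below every value of the other tested members. The remaining 12 hnRNPs had mean levels between 11.3 and 49.8 TPM.

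**Figure D1:**
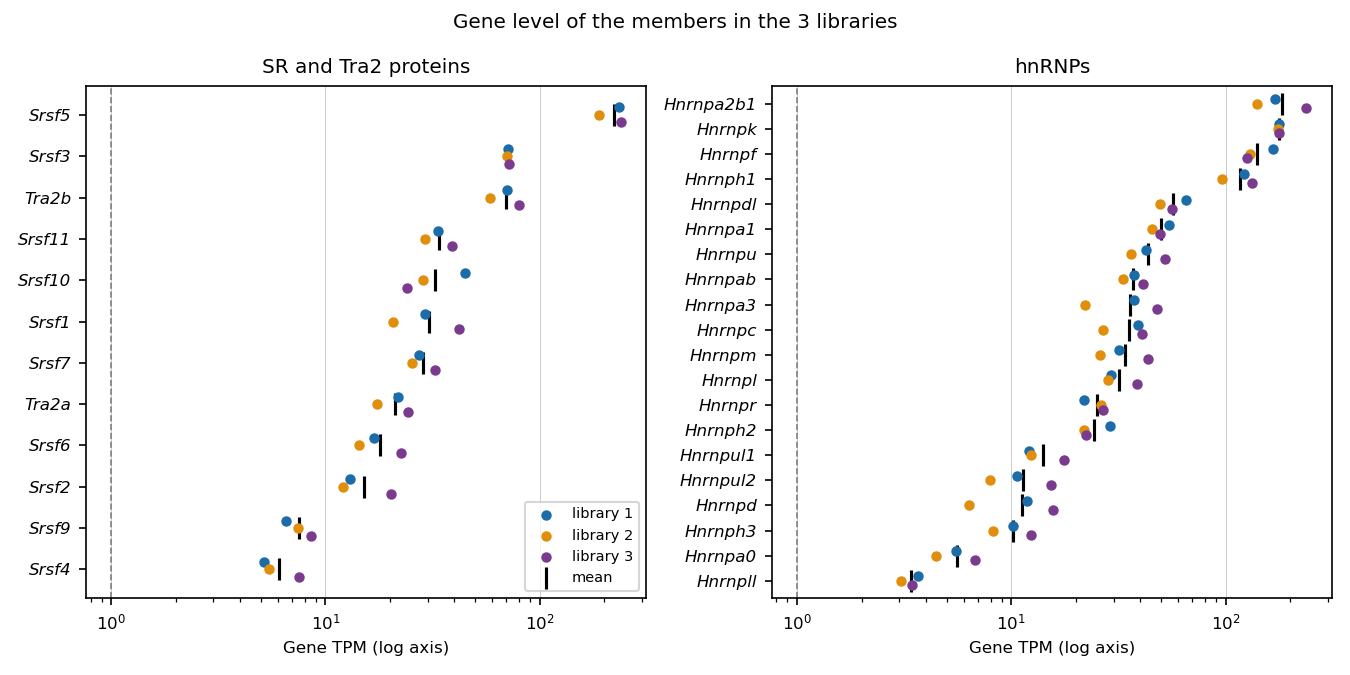
Gene TPM (log axis) of the 12 SR and Tra2 proteins with counts and the 20 hnRNPs, with 1 point per library and a bar at the mean of 3 libraries; Srsf12, at 0, is not drawn and the dashed line marks 1 TPM. All points lie to the right of 1 TPM, and library 2 is the lowest point in 26 of the 32 rows.

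The spread between libraries was moderate. The median coefficient of variation was 17.0% over the 32 members, from 0.485% to 41.6%, and 24.5% over the 8302 protein-coding genes. The 2 sets were not matched for level, which had a median of 32.2 TPM in the members and 4.51 TPM in the 8302 genes. The highest library was less than 1.5 times the lowest for 21 of 32 members and more than 2 times for 3. The largest ratio was that of Hnrnpd (AUF1), which binds AU-rich elements, at 11.8, 6.33 and 15.7 TPM, a ratio of 2.47. Hnrnpa3 stood at 37.5, 22.1 and 47.8 TPM (2.16-fold), and Srsf1, the founding SR protein, at 29.0, 20.7 and 41.9 TPM (2.03-fold). Hnrnpul2 stood at 10.6, 7.91 and 15.3 TPM (1.94-fold). In all 4 library 2 was lowest and library 3 highest, while Srsf10, at 1.86-fold, was highest in library 1.

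That order was common. Library 3 was highest for 25 of 32 members (78.1%) and for 58.2% of the protein-coding genes, and library 2 was lowest for 26 members (81.2%) and for 53.0%. As shares of each library's protein-coding total, 23 members were highest in library 3 and 20 lowest in library 2. These shares were not counted over all protein-coding genes, so the 2 counts have no background beside them. The median member differed by 0.26 on the log2 scale between libraries 3 and 1, against 0.21 over the protein-coding genes. The single libraries have no replicate of their own, and library 3 also differed in its cell markers and fragment range, whose part was not tested.

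The transcript tables with estimated counts were used for the classes, with the value of a transcript in tpm. This tpm is on another scale than the TPM above. Small nuclear RNAs held 43.1%, 48.5% and 41.5% of it in libraries 1, 2 and 3. Hnrnpa0, with 1 transcript, stood at 10.2, 7.79 and 12.9 tpm but at 5.52, 4.43 and 6.74 TPM. Summed over all members, protein_coding transcripts held 48.9%, 50% and 41.2% of the members' tpm in libraries 1, 2 and 3. Retained_intron transcripts held 22.2%, 24.1% and 30.1%, decay-class transcripts 9.93%, 8.94% and 9.60%, and processed_transcript forms 18.9%, 16.9% and 19.1%. In library 3 the coding share was lowest and the retained_intron share highest.

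The most abundant transcript was not protein_coding for 14 of the 32 members with a summed mean of 1 tpm or more (43.8%), against 23.3% of the 9766 genes with a protein_coding transcript and such a mean. These percentages were not matched for annotated forms, of which members had more (median 7 transcripts against 4). Among the 14, the classes differed. The leading form was a retained_intron transcript for 8 (Hnrnpa2b1, Hnrnph3, Hnrnpk, Hnrnpl, Hnrnpll, Hnrnpr, Srsf11 and Tra2b), a decay-class transcript for 3 (Hnrnpdl, Hnrnpu and Tra2a) and a processed_transcript for 3 (Hnrnph1, Srsf10 and Srsf3). A transcript of the same class also led in the tables with expected counts for 12 of the 14, Hnrnpdl and Hnrnpr being led there by a protein_coding transcript. The same transcript led in every library for only 5 of the 14.

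Within each gene, the summed tpm of the retained_intron transcripts was set against that of the protein_coding transcripts. The median retained_intron share of a member was 18.2%, 23.9% and 29.8% in libraries 1, 2 and 3, beside 20.7%, 20.2% and 25.1% over all genes tested. It was highest in library 3 for 14 of 24 members (58.3%) and for 44.8% of all genes tested. By limma, retained_intron tpm was higher than protein_coding tpm for 5 of 24 members and lower for 10. Over the 5948 genes tested it was higher for 6.88% and lower for 50.0%. Members and all genes were not matched for the number of annotated transcripts (median 7 against 4 over all genes with a protein_coding transcript).

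Tra2a had the largest difference among the members whose retained_intron level was the higher. Its retained_intron transcripts stood at 4.94, 4.10 and 18.9 tpm and its protein_coding transcripts at 0.364, 0 and 0.957 tpm, a difference of 4.33 ± 0.49 (SE, n = 3) on the log2(tpm + 0.1) scale (limma adjusted p = 0.0032). The class share was 13.3%, 14.3% and 38.2%, so library 3 lay far above the others. The single-exon transcript Tra2a-203 stood at 2.49, 2.18 and 14.3 tpm and the spliced form Tra2a-205 at 2.45, 1.92 and 4.6 tpm. Only Tra2a-205 held a whole intron that a protein_coding transcript removes. The difference was 2.31 with the authors' expected-count tables on the GENCODE M21 annotation (the expected-count M21 tables) and 2.61 with a pseudocount of 1. With estimated counts in place of tpm it was 7.94 and the call was lost (limma adjusted p = 0.062), the only loss in the 10 alternatives in which the gene was tested.

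Retained_intron transcripts of Hnrnpll stood at 4.43, 3.39 and 4.62 tpm against 1.30, 0.284 and 0.485 tpm of coding transcripts. The log2 difference was 2.63 ± 0.44 (limma adjusted p = 0.0080). The share was 60.8%, 65.8% and 71.6%, and the class was higher in every library and was called higher in all 10 alternatives in which the gene was tested. Among these transcripts, only Hnrnpll-202, at 1.75, 0.482 and 0.776 tpm, held a whole intron that a protein_coding transcript removes. Srsf11 had 11 retained_intron transcripts, the most of any SR protein, at 49.1, 50.6 and 62.6 tpm together against 12.4, 7.29 and 22.9 tpm of coding transcripts. The difference was 2.06 ± 0.41 (limma adjusted p = 0.012), with a share of 74.4%, 82.2% and 69.9%, the highest mean share of all members. None of the 11 Srsf11 transcripts held a whole intron that a protein_coding transcript removes.

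Hnrnpl, which binds CA repeats, had retained_intron transcripts at 42.7, 44.2 and 64.6 tpm against 18.6, 13.4 and 17.8 tpm of coding transcripts. The groups did not overlap and the difference was 1.59 ± 0.35 (limma adjusted p = 0.016), with a share of 69.7%, 76.7% and 77.7%. Among the Hnrnpl retained_intron transcripts, only Hnrnpl-210 and Hnrnpl-203 held a whole intron of a coding transcript, at means of 5.56 and 2.35 tpm. For Srsf3 the values were 20.6, 21 and 42.4 tpm against 13.6, 6.42 and 8.93 tpm, a difference of 1.51 ± 0.45 (limma adjusted p = 0.039). Srsf3 has 1 protein_coding transcript, and its retained_intron share was only 16.9%, 16.6% and 27.2%, because processed_transcript forms held 56.8%, 62.7% and 54.3%. Without library 3 the Hnrnpl and Srsf3 calls were lost (limma adjusted p = 0.068 and 0.14), and 3 members remained higher, Hnrnpll, Srsf11 and Tra2a. The same 3 were left without library 2. The Srsf3 difference was 0.19 with the expected-count M21 tables (limma adjusted p = 0.69), and its call was also lost with the tables on the older GENCODE M4 annotation, a pseudocount of 0.01 and no filter (limma adjusted p = 0.072, 0.065 and 0.0502). With estimated counts the Hnrnpl difference was 0.73 (limma adjusted p = 0.15).

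A further 9 members passed in neither direction. Hnrnpk had 13 retained_intron transcripts, at 56.6%, 56.0% and 64.0% of its tpm, and a difference of 0.70 ± 0.33 (limma adjusted p = 0.13). Hnrnph3, a small relative of the F and H proteins, had shares of 45.4%, 58.6% and 58.0% and a difference of 1.29 ± 0.47 (limma adjusted p = 0.069). In both the class held more than the coding transcripts in every library, without passing the test. Hnrnpa2b1 shares were 42.9%, 41.8% and 59.0%, and those of Srsf7, an SR protein with a zinc knuckle, 44.6%, 44.3% and 44.4%. The Srsf7 share had an SD of 0.175 percentage points here and of 3.50 points in the expected-count tables.

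Srsf2 (SC35), a marker of nuclear speckles, had retained_intron shares of 33.6%, 30.9% and 43.7%. Srsf1 had 41.9%, 30.6% and 32.3%, and Tra2b 25.8%, 22.9% and 38.3%. In Tra2b and Srsf2 library 3 was highest, in Srsf1 library 1. Srsf4 had 19.3%, 35.7% and 24.1%. Hnrnpu, a scaffold protein of the nuclear matrix, had 17.2%, 11.2% and 18.2%. For these 5 genes the log2 difference lay between -0.91 and 0.46 (limma adjusted p from 0.082 to 0.97). With the expected-count M21 tables, 2 of them were called lower, Srsf4 at -2.82 (limma adjusted p = 0.0046) and Srsf1 at -1.23 (limma adjusted p = 0.031), and both were also lower with M4 tables.

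Retained_intron tpm was below coding tpm for Hnrnpc, Hnrnpul1, Hnrnpul2, Hnrnpa3, Hnrnpd, Srsf5, Hnrnpdl, Srsf6, Hnrnpm and Hnrnpr, with log2 differences from -5.49 to -1.14. Hnrnpc, which binds uridine tracts, was the extreme case, with retained_intron shares of 0.886%, 2.75% and 3.30%. Without library 3, 6 of these 10 calls remained (Hnrnpc, Hnrnpul1, Hnrnpul2, Hnrnpa3, Hnrnpdl and Srsf5), and without library 1, 4 remained (Hnrnpc, Hnrnpul1, Hnrnpul2 and Hnrnpa3).

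**Figure D2:**
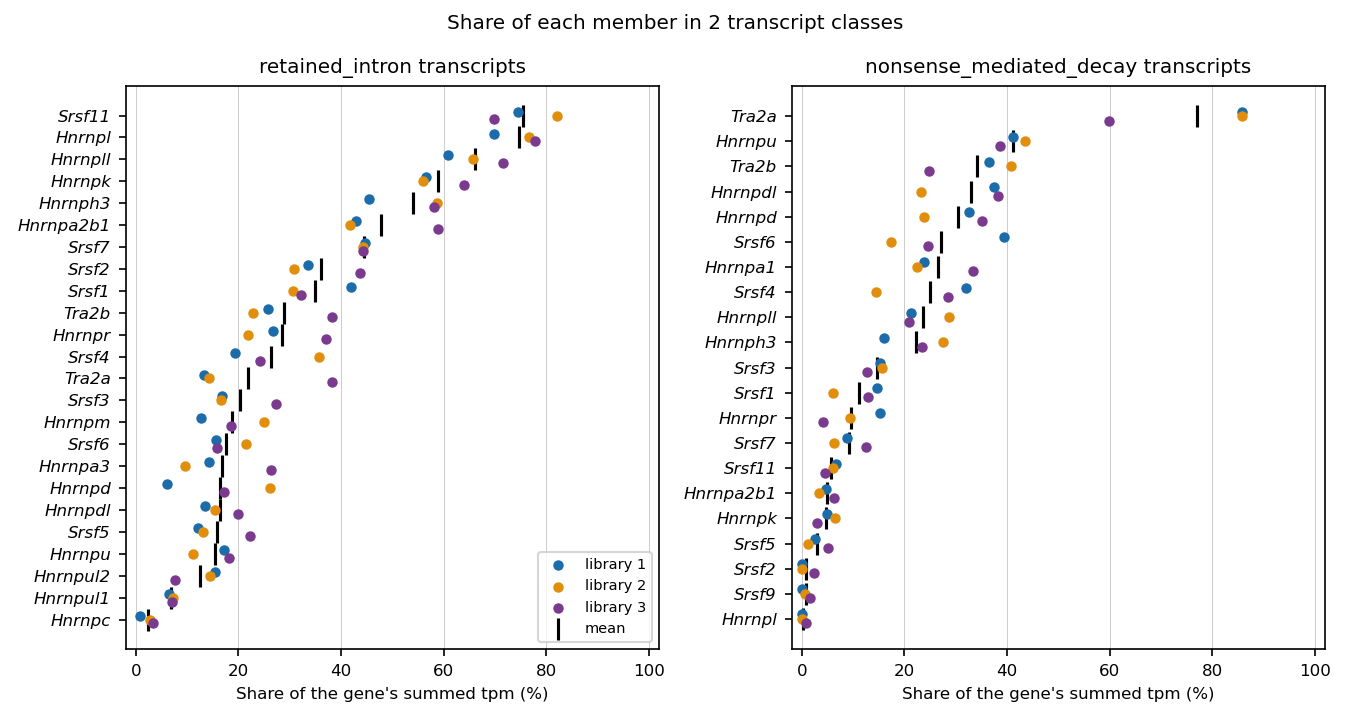
Share of each gene's summed tpm (%) in retained_intron transcripts (24 members) and in nonsense_mediated_decay transcripts (21 members), with 1 point per library and a bar at the mean. Srsf11, Hnrnpl, Hnrnpll, Hnrnpk and Hnrnph3 have a mean retained_intron share above 50%, and Tra2a alone has such a share of decay-class transcripts.

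Decay-class transcripts were compared with coding transcripts in the same way. The median share of a member was 15.3%, 14.5% and 12.9% in libraries 1, 2 and 3, beside 6.53%, 7.01% and 8.60% over all genes tested. By limma, decay-class tpm was higher than coding tpm for 2 of 21 members and lower for 11. Over the 2815 genes tested it was higher for 3.59% and lower for 60.8%. Here too, members and all genes were not matched for the number of annotated transcripts.

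Tra2a again had the largest difference on the higher side. Its single decay-class transcript, Tra2a-202, stood at 31.8, 24.6 and 29.7 tpm and led the gene in every library. That is 85.7%, 85.7% and 59.9% of the gene's tpm, and the difference from the coding transcripts was 6.29 ± 0.73 (SE, n = 3; limma adjusted p = 0.0034). On the TPM scale, which differs from tpm as given above, the authors' expected-count tables gave the transcript 18.4, 14.3 and 12.1 TPM. The deposited bounds were 17.3 to 18.6, 13.5 to 14.6 and 10.8 to 12.4 TPM. In both sets of tables the transcript lay far above the coding transcripts Tra2a-201 and Tra2a-204, which reached at most 0.957 tpm and 1.15 TPM in any library. The difference was 4.09 with the expected-count M21 tables. The call held without each library in turn and was lost in 1 of the 10 alternatives run for it, again the one with estimated counts (9.12, limma adjusted p = 0.068).

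In Hnrnpu, decay-class transcripts stood at 46.4, 34.9 and 62.6 tpm and the 1 coding transcript at 13.4, 8.33 and 17.5 tpm. The groups did not overlap, and the difference was 1.89 ± 0.40 (limma adjusted p = 0.016). The main form, Hnrnpu-206, ends its reading frame in an exon that overlaps an exon of the coding transcript. The difference was 0.65 with the expected-count M21 tables and 0.17 with estimated counts (limma adjusted p = 0.14 and 0.77). The call was lost in both and without each library in turn (limma adjusted p = 0.066 without library 3), and held in the other 5 of the 10 alternatives run for it. Hnrnpu also shares 804 exon bases with Cox20 on the opposite strand, at 14.0, 9.31 and 16.7 TPM. Whether reads were counted by strand was not given in the sources used here. Other members overlap other genes too, among them Hnrnpab and Srsf2 on the opposite strand. Hnrnpm shares 1169 exon bases with March2 on the same strand, and March2 stood at 5.81, 8.48 and 7.7 TPM. The part of these overlaps in the members' values was not tested.

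Tra2b shared the pattern of its paralogue only in part. Its decay-class transcripts stood at 50.7, 42.4 and 40.7 tpm beside 41.3, 32.1 and 41.5 tpm of coding transcripts, with overlapping ranges and a difference of 0.22 ± 0.41 (limma adjusted p = 0.64). Their share was 36.6%, 40.8% and 24.9%. In the expected-count tables the share was 21.5%, 31.5% and 15.6%, and the 550-base form Tra2b-207 stood at 1.46, 3.40 and 1.36 TPM there, against 25.3, 20.7 and 9.52 tpm. TPM and tpm differ in scale, as given above.

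Srsf3 had decay-class shares of 15.3%, 15.7% and 12.8%, nearly all of it in Srsf3-201 at 18.5, 19.8 and 19.9 tpm. Its difference from the coding transcript was 1.07 ± 0.46 (limma adjusted p = 0.098). Hnrnpll had shares of 21.3%, 28.7% and 20.9% and a difference of 1.20 ± 0.53 (limma adjusted p = 0.11). Both lay on the higher side without passing the test. Hnrnph3 had 16%, 27.5% and 23.4%.

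The other 4 members that passed in neither direction lay on the lower side. Hnrnpdl had 37.5%, 23.2% and 38.2%, and Hnrnpd 32.5%, 23.9% and 35.0%. Srsf4 had 32.1%, 14.5% and 28.6%, and Srsf6 39.4%, 17.3% and 24.6%. In all 4 of these genes library 2 had the lowest share. Of the 4, 3 were called lower with the expected-count M21 tables, Srsf4 at -2.73, Hnrnpdl at -2.61 and Srsf6 at -2.11 (limma adjusted p = 0.0033, 0.0063 and 0.0064). In the estimated-count tables the same differences lay between -1.08 and -0.64. The same 3 were lower with M4 tables.

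Decay-class tpm was below coding tpm for Hnrnpl, Srsf2, Srsf9, Srsf5, Hnrnpa2b1, Hnrnpk, Hnrnpr, Srsf7, Srsf1, Srsf11 and Hnrnpa1, with log2 differences from -6.36 to -1.49. In Hnrnpl the class held 0%, 0% and 0.856% of the gene's tpm, so the gene that stood second in retained_intron share had almost no decay-class RNA. Srsf11 likewise had decay-class shares of 6.74%, 5.98% and 4.53%. Of these 11 calls, 7 held without library 3 and 6 without library 2.

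**Figure D3:**
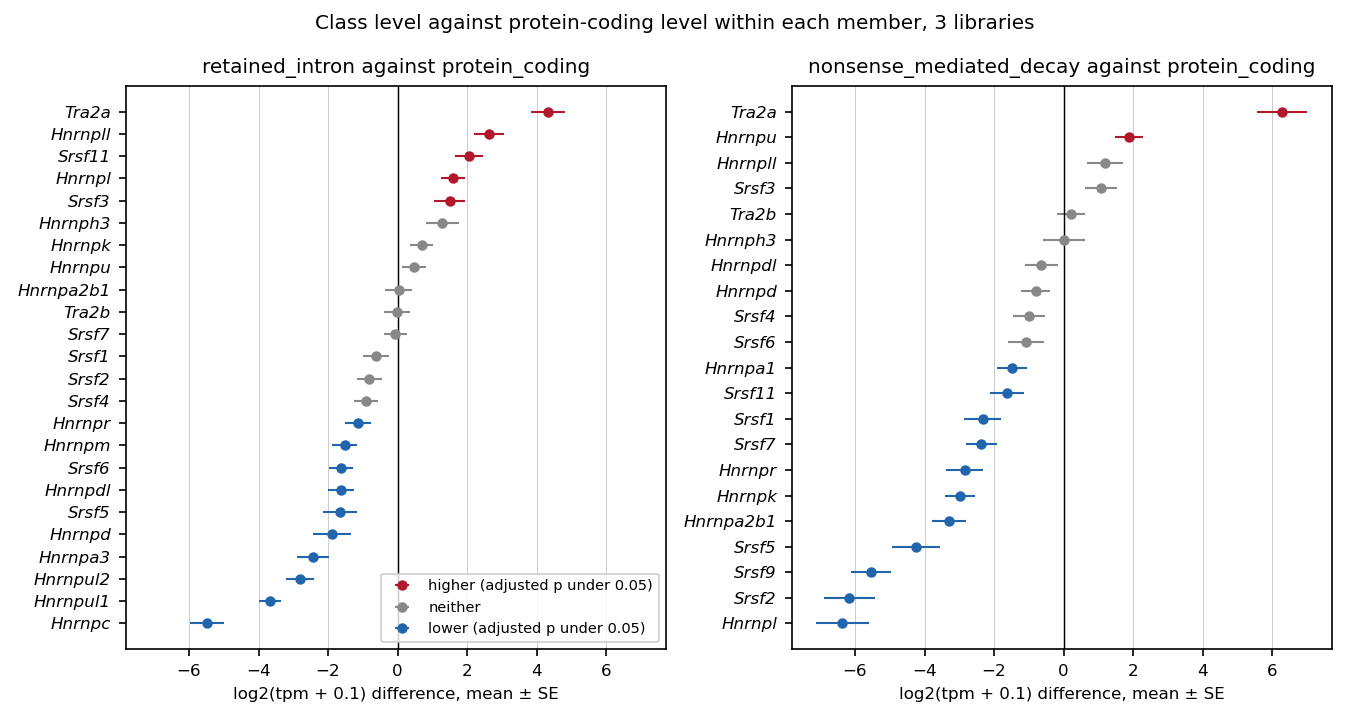
Difference between the class level and the protein_coding level of each member on the log2(tpm + 0.1) scale, as mean ± SE of 3 libraries, for retained_intron (24 members) and nonsense_mediated_decay transcripts (21 members), coloured by the limma call. Tra2a lies at the top of both panels, at 4.33 and 6.29, and Hnrnpl lies high on the left (1.59) and lowest on the right (-6.36).

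For 3 members most tpm lay in processed_transcript forms. Hnrnph1 had 15 of them, holding 98.6%, 95.4% and 92.8% of its tpm, and its coding transcripts stood at 3.28, 7.56 and 20.9 tpm. Srsf10 had 86.7%, 77.7% and 76.7% in this class, and Srsf3 the 56.8%, 62.7% and 54.3% given above. In the expected-count tables the Hnrnph1 share was 92.3%, 91.8% and 89.4%, that of Srsf10 77.7%, 62.5% and 63.1%, and that of Srsf3 45.8%, 48.4% and 30.6%. At the other end, Hnrnpf, Hnrnph2, Hnrnpab, Hnrnpa0 and Srsf12 have only protein_coding transcripts.

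The 2 sets of transcript tables gave close retained_intron shares and less close decay-class shares. The mean retained_intron share differed by a median of 3.26 percentage points between them, and 22 of 24 members were within 10 points, the largest gap being that of Srsf4 (26.3% and 10.9%). The mean decay-class share was higher in the estimated-count tables for 17 of 21 members and within 10 points for 15. The largest gap was that of Hnrnpd, at 30.5% against 56.2%, whose leading transcript in the estimated-count tables, the 493-base Hnrnpd-210, stood at 12.4, 5.40 and 11.7 tpm and in the other tables at 0.56, 0 and 0 TPM. In Srsf10 the 394-base leading form Srsf10-209 likewise stood at 50.9, 28.9 and 19.0 tpm against 12.8, 3.70 and 0 TPM. For both transcripts the difference in scale between tpm and TPM, given above, is part of the gap.

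**Figure D4:**
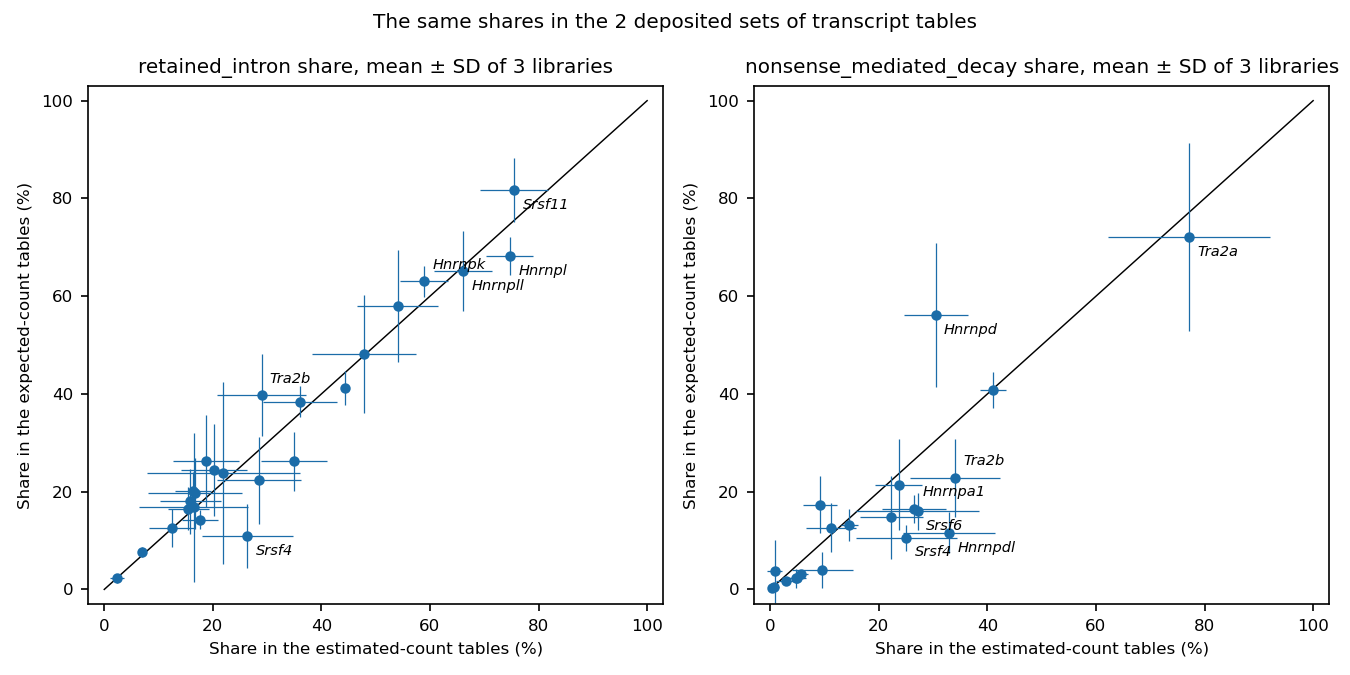
Mean share ± SD over 3 libraries of retained_intron (left) and nonsense_mediated_decay transcripts (right), with the estimated-count tables on the horizontal and the expected-count tables on the vertical axis, both in % of the gene's summed value; the line marks equal shares. Retained_intron shares lie near the line, while Hnrnpd lies above it in the right panel and Hnrnpdl, Tra2b and Srsf4 below it.

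Some members have near-identical relatives that could share their reads: 14 members matched at least 1 other gene at 95% identity or more over at least 50% of the shorter transcript. The 12 relatives of Hnrnpa1 summed to 15.6 TPM on average against 49.8 TPM for Hnrnpa1 itself, and those of Hnrnpk to 17.9 TPM. Hnrnpa3 had 31 relatives with 8.01 TPM in all. How many reads were shared with these relatives was not tested, so the sums set no limit on the uncertainty of the members' levels.

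The machinery around these proteins was present as well. Of 80 genes in 7 lists, 76 lay above 1 TPM by edgeR, beside the 43.2% of all genes given above. The SR protein kinases, which phosphorylate the arginine and serine rich domain, were led by Clk1 at 140, 120 and 173 TPM, followed by Clk4 at 48.0, 43.0 and 41.0 TPM. Clk3 stood at 13.1, 9.10 and 16.3 TPM and Clk2 at 12.4, 7.61 and 14.5 TPM. Every value of Clk1 lay above every value of the other 7 kinases. Dyrk1a stood at 9.98, 8.21 and 11.1 TPM and the cytoplasmic kinase Srpk1 at 8.67, 7.70 and 10.5 TPM. Srpk2 stood at 2.78, 3.15 and 6.06 TPM. Srpk3, known from muscle, was lowest at 2.01, 1.92 and 1.24 TPM and was the 1 kinase of 8 that did not pass.

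All 15 SR-related cofactors passed, from Scaf1 at 1.61, 1.57 and 2.17 TPM to Rbm39 at 179, 159 and 145 TPM. Of 15 splice site recognition proteins 14 passed. Sf3b1, a core protein of the U2 particle, was highest at 101, 89.6 and 73.0 TPM, and Sf3a2 did not pass at 0.99, 1.00 and 2.40 TPM. Among 20 other RNA-binding splicing regulators 18 passed. Mbnl1, of the muscleblind family, was highest at 84.4, 89.3 and 116 TPM, and Rbfox2 was lowest at 0.03, 0 and 0 TPM.

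The 10 nonsense-mediated decay factors all passed but at low levels, from Smg8 at 2.45, 1.11 and 2.68 TPM to the kinase Smg1 at 9.03, 7.56 and 14.8 TPM. Their median level was 3.38 TPM, below that of each of the other 6 lists. All 6 exon junction complex genes passed, from Magohb at 5.48, 3.34 and 2.83 TPM to Magoh at 17.2, 19.3 and 16.5 TPM. So did the 6 transport genes, from the importin Tnpo2 at 1.26, 2.62 and 1.89 TPM to the export receptor Nxf1 at 8.98, 11.9 and 14.2 TPM.

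**Figure D5:**
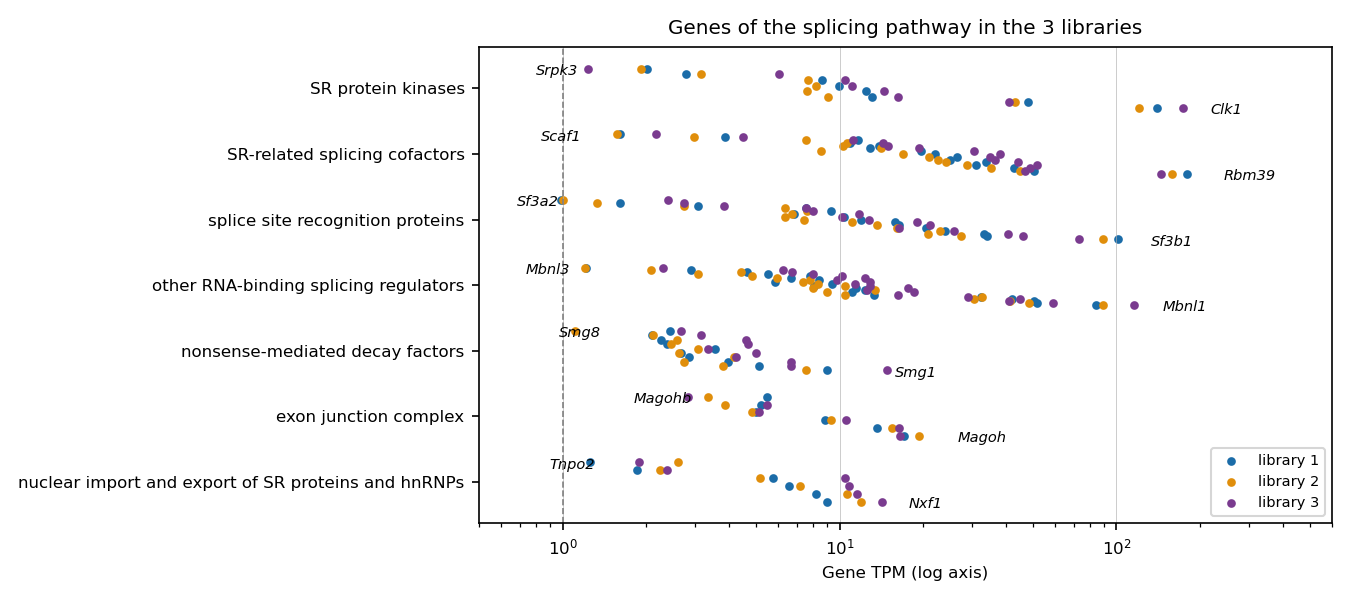
Gene TPM (log axis) of the 80 pathway genes by list, with 1 point per gene and library and the highest and lowest drawn gene of each list named; Rbfox2, near 0, is not drawn and the dashed line marks 1 TPM. Clk1, Rbm39, Sf3b1 and Mbnl1 lead their lists, and the nonsense-mediated decay factors lie between 1.11 and 14.8 TPM.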

How the data were processed

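Total RNA of 3 monocyte libraries was measured by sequencing. The authors deposited gene and transcript tables with expected counts and TPM, and transcript tables with estimated counts and tpm. The assembly is mm10, per the labels. Neither the quantifier nor its strandedness was given in the sources used here. Authors' lower and upper TPM bounds are deposited without a stated level.

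Depth was 19917940 to 27158565 expected counts per library. Rows naming no gene (up to 0.000571% of counts) were left out. Expected counts were rounded and tested against 1 TPM with edgeR 4.0.16 over genes with 10 or more counts in all. Class levels were compared with limma 3.58.1 on log2(tpm + 0.1), for genes with a mean of 1 tpm or more in both classes together. All p-values were two-sided and adjusted by Benjamini and Hochberg over the whole table at 0.05. Fold values on this scale understate differences of low values. Classes and positions are GENCODE M21 (R 4.3.3, BLAST+ 2.17.0). The fits were also run on simulated data. For the classes these were log2 differences drawn directly, without zeros or errors of transcript assignment.

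Named with values in every library were the 5 highest and 3 lowest members of each family, members not lower in a class, the 5 highest class shares, members led by another class, the 5 largest ratios, all kinases, and the ends of each list. The members and lists were chosen with earlier results of these data known. Alternatives were other tables, scalings, filters, pseudocounts, DESeq2 1.42.0 size factors and leaving out each library.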

Additional observations from a re-analysis of the deposited data

How the results depend on the processing

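No paired analysis was possible because the libraries form 1 group. All 32 tested members stayed above 1 TPM under every scaling, filter, table and left-out library. Srsf12 was testable in the sums of the estimated-count transcript tables alone, where it lay below. Over all genes, TPM over protein-coding genes alone gave 12092 above 1 TPM in place of 7638. Pathway counts and the members' spread moved by less than 1.5 times.

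Retained_intron calls depended more on the tables. The 5 members called higher became 3 with the tables on the older GENCODE M4 annotation (of 18 tested, Tra2a not among them) or estimated counts, and 3 to 6 with a library left out. The 10 called lower became 4 to 7 with a library left out. All genes called higher numbered 409, but 261 with the expected-count M21 tables, 161 with M4 tables and 233 to 294 with a library left out. The median share of 24.1% became 35.4% with M4 tables and 31.1% with estimated counts.

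For the decay class, the 2 members called higher became 1 with the expected-count M21 tables, and 0 with estimated counts in limma, where Tra2a was higher at an unadjusted p under 0.05. M4 tables also gave 0 (0 at an unadjusted p under 0.05), but among 15 members tested that did not include Tra2a or Hnrnpu. It was 1 whichever library was left out. The 11 called lower became 6 to 9 with a library left out, and 14 with the expected-count M21 tables or a pseudocount of 1. All genes higher numbered 101, but 47 with M4 tables, 56 with a pseudocount of 0.01, 66 with a mean of 5 tpm or more and 47 to 59 with a library left out. All genes lower numbered 1712, and 1100 with a mean of 5 tpm or more, where fewer genes were tested. The median share of 14.6% became 12.6% and 11.6% with the expected-count M21 and M4 tables.

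No member with a call turned direction in the alternatives in which it was tested, and all that follow had none. For retained introns, Hnrnpa2b1 gave -0.034 with the expected-count tables and -0.34 to 0.24 with a library left out (-0.34 without library 3). With estimated counts Hnrnph3 gave -0.12, Hnrnpk -1.13, Srsf7 0.067 and Hnrnpu -3.17 (called lower there, limma adjusted p = 0.011), and Hnrnpu gave -0.68 and -0.67 with the expected-count M21 and M4 tables. Tra2b gave 0.40 and 0.22 with these tables, and -0.32 to 0.19 with a library left out. For the decay class, Hnrnpd gave 0.99 and 0.77 with these tables and 0.35 with transcripts of 500 bases or more. Hnrnph3 gave -0.84 and -0.84 with these tables, -0.014 with a pseudocount of 1, -0.12 with estimated counts, and -0.45 to 0.64 with a library left out. Tra2b gave -0.43 and -1.40 with these tables and -0.68 with estimated counts, and Srsf3 -0.66 with the expected-count M21 tables. The cause was not tested.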

Other observations

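The kinases that phosphorylate SR proteins were also split over transcript classes. Clk1 retained_intron transcripts held 66.0%, 60.3% and 69.8% of the gene's tpm in libraries 1, 2 and 3, with a difference from the coding transcripts of 3.52 ± 0.42 (SE, n = 3) on the log2(tpm + 0.1) scale (limma adjusted p = 0.0036). For Clk3 the share was 71.3%, 65.5% and 68.0% and the difference 1.26 ± 0.33 (limma adjusted p = 0.028). In the expected-count M21 tables the mean shares of Clk1 and Clk3 were 61.9% and 48.3%, against 65.4% and 68.2% here. Clk4, with 27.9%, 38.2% and 54.9%, and Clk2, with 31.3%, 34.3% and 33.8%, passed in neither direction. Nor did Srpk1, Srpk2 and Srpk3, with mean shares of 63.3%, 29.5% and 52.5%. Dyrk1a lay on the other side, at 1.92%, 1.53% and 3.26% and a difference of -5.26 ± 0.36 (limma adjusted p = 0.0022). These genes are no members, and no list was tested as a whole.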
